A study of Mus musculus with 5 samples.

Results

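Paneth cells were taken here as the ileal cells in which 19 antimicrobial genes together held at least 10% of the transcripts counted as unique molecular identifiers (UMIs). The genes were Lyz1, Ang4, Itln1, Gm14851, Gm15284, AY761184 and the 13 genes whose symbol starts with Defa. After a filter that asked for 500 or more detected genes and no more than 20% mitochondrial UMIs, 18955 cells were left, of which 1172 (6.18%) met this rule; the other 17783 are called the remaining cells. The study profiled epithelial cells of the distal small intestine (ileum) by droplet single-cell RNA sequencing, to compare mice after small bowel resection, the surgical removal of a length of small intestine, with mice after a sham operation. All mice were C57BL/6 and 8 to 12 weeks old, with no transgene or further treatment named, and the labels give neither the length removed nor the time after surgery. There were 3 sham libraries and 2 resection libraries. The labels do not say whether each library came from a separate mouse or from pooled mice, so p-values below measure the spread between libraries, which may be technical.

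Paneth cells sit at the base of the small intestinal crypts, between the stem cells, and empty granules of antimicrobial proteins into the crypt lumen. Their main products are the alpha-defensins, short cationic peptides made as precursors that the protease Mmp7 cuts into the active form in mice, together with the muramidase Lyz1, the ribonuclease-family protein Ang4 and the lectin Itln1. Paneth cells also supply stem cells with signals such as Wnt3 and Notch ligands, share a secretory origin with goblet cells, and arise under the transcription factors Atoh1, Spdef and Sox9.

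The alpha-defensin genes lie together, and each has a near copy among the others in its coding sequence, which bears on the counts of single genes given below. In the GENCODE M21 annotation of GRCm38, 16 of the 19 antimicrobial genes lie on chromosome 8 between 21025545 and 21735471, a stretch of 710 kb. Lyz1 lies on chromosome 10, Ang4 on chromosome 14 and Itln1 on chromosome 1. The coding sequences of the 4 alpha-defensin genes with symbols in Defa and the most UMIs are shown 5′ to 3′ as annotated there, because they held most of the UMIs of the 19 genes and show how much and how little the copies differ. Defa24 has 2 exons on the plus strand at chr8:21734494-21735471, Defa20 at chr8:21509258-21510237, Defa21 at chr8:21025545-21026516 and Defa22 at chr8:21162277-21163249, all on the plus strand with 2 exons. Lower case marks bases equal to Defa24 in the alignment and capitals mark bases that differ from it.
Defa24: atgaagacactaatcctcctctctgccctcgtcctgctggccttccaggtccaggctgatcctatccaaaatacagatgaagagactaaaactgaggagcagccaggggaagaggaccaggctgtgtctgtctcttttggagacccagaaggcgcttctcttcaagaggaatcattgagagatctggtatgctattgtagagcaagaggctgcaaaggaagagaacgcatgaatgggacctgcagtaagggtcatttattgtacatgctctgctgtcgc
Defa20: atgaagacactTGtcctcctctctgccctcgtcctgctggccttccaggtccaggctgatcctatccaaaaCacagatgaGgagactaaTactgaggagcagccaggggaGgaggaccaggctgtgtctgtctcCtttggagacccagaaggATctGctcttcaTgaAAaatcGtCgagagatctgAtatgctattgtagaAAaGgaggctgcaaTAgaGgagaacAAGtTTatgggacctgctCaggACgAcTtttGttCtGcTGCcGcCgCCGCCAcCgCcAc
Defa21: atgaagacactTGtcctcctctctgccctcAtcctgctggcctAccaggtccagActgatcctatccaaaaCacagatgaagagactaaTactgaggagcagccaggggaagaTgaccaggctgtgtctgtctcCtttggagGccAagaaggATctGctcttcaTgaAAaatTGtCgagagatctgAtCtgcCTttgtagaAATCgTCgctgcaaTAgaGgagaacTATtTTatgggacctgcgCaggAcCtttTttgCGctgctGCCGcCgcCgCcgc
Defa22: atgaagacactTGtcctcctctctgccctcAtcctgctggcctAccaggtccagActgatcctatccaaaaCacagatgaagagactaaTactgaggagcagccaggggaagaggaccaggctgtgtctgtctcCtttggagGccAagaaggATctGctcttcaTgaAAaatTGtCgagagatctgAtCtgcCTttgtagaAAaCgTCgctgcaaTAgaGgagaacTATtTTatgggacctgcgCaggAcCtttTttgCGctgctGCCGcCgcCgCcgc
Defa20 was 82.2% identical to Defa24 over the aligned coding bases, Defa21 80.6% and Defa22 81.3%. Defa21 and Defa22 were 99.3% identical to each other, and the coding sequence of Defa20 was the same, base for base, as that of Gm15308, a neighbouring gene that the rule did not use. Across the 26 genes of the stretch compared here, the nearest copy was 96.8% to 100% identical, with a median of 98.9%. How the authors' counting treated reads that fit several copies is not given in the sources used here. The level of a single defensin gene is therefore uncertain, and the effect on the sum over the family was not tested. Only coding sequences were compared, not the untranslated ends of the transcripts.

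The starts of these genes are also alike. The 250 bases before the start of Defa21 (chr8:21025295-21025544) and of Defa20 (chr8:21509008-21509257), both on the plus strand, are shown from RefSeq for GRCm38.p6, because members of the family were abundant together. Capitals mark ATCAAAG, a form of the motif bound by TCF factors of the Wnt pathway, which was searched on both strands as ATCAAAG and CTTTGAT.
Defa21: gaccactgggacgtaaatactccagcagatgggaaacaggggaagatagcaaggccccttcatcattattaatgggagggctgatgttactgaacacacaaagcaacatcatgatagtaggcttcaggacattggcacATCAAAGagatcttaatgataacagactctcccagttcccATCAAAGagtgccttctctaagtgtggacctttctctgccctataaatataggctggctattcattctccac
Defa20: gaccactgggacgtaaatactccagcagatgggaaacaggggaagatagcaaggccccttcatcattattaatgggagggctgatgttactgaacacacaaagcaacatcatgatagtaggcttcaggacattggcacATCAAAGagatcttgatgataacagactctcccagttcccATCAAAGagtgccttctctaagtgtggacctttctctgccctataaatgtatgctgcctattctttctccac
The motif stood 72 and 112 bases before the start in both. Of the 19 antimicrobial genes, 8 had an entry in the RefSeq table, and 5 of those (Defa2, Defa20, Defa21, Defa22 and Defa23) held 2 copies each, while Lyz1, Ang4 and Itln1 held none. Among all 27025 promoters of the table, 872 (3.23%) held at least 1 copy and 27 (0.0999%) at least 2. The 5 are near copies of each other, so they do not count as separate cases, and a match is a description of letters, not of binding.

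Before any comparison, the libraries stood apart in a way that cut across surgery. Sham 1 and resection 1 had the higher median mitochondrial share (13.3% and 11.6% of UMIs per kept cell), and sham 2, sham 3 and resection 2 the lower (7.23% to 9.13%), so that each set holds both groups. Depth per library lay between about 11749000 and 41281700 UMIs in total, and the lowest total of any deposited cell differed by library, from 2354 to 3963 UMIs, so the deposited barcodes start at a different depth in each. Libraries shared between 6 and 45 cell barcodes per pair, 196 over the 10 pairs, of which 1 was a Paneth cell in both. Doublets, droplets with more than 1 cell, were kept, and a score from simulated doublets marked 115 of the 1172 Paneth cells and 720 of all kept cells.

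The antimicrobial share of most Paneth cells lay far above the threshold. The median Paneth cell held 67.3% of its UMIs in the 19 genes, 863 of 1172 cells (73.6%) held at least 60%, and the highest held 82.9%. By library the median was 67.6%, 66.7% and 69.6% for sham 1, 2 and 3, then 73.9% and 59.6% in resection 1 and 2. Just outside the threshold, 17 cells held 8% to 10%, and just inside it, 10 cells held 10% to 12%. The lowest share among Paneth cells was 10.1% and the highest among remaining cells 9.98%. The lower range was filled unevenly: cells between 10% and 40% numbered 4, 32 and 12 in the sham libraries and 4 and 82 in the resection libraries, and of 508 cells between 2% and 10%, sham 2 held 396.

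**Figure D1:**
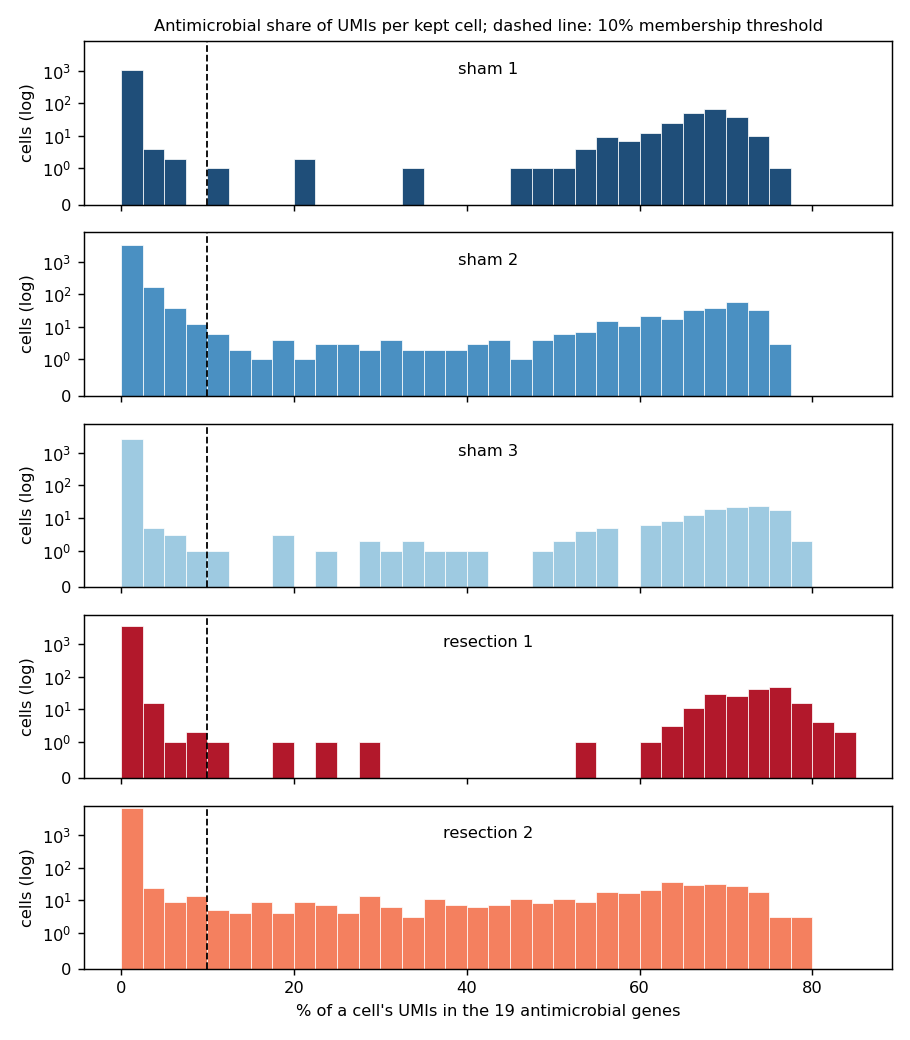
Number of kept cells (log axis) by the share of their UMIs in the 19 antimicrobial genes (percent, bins of 2.5), 1 panel per library, with the 10% threshold as a dashed line. Most cells lie near 0 and most Paneth cells lie at 45% or more; the range between is nearly empty in sham 1, sham 3 and resection 1 and filled throughout in sham 2 and resection 2.

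The remaining cells were not free of these transcripts. Their median antimicrobial share was 0.727%, 1.01% and 0.245% for sham 1, 2 and 3, then 0.404% in each resection library, and Defa24 was found in 99.04% to 100% of remaining cells. Their summed level of each antimicrobial gene, taken over the 15 or 16 genes with at least 50 UMIs there, was a small fraction of the Paneth level: the median over genes was 1.62% in sham 2 (range 1.18% to 2.04%), 0.391% in sham 3 (0.279% to 0.567%), 0.585% in resection 1 (0.294% to 0.835%) and 0.778% in resection 2 (0.628% to 1.08%). In sham 1 the median was 1.18% (0.367% to 1.55%). The ratio of Defa24 to Defa20 UMIs was higher in the remaining cells in every library. In sham 1, 2 and 3 it was 1.25, 1.79 and 1.47 in Paneth cells, against 1.84, 1.92 and 1.58 in remaining cells. In resection 1 and 2 it was 1.44 and 1.76, against 1.73 and 1.87. A share of cells with a UMI of these genes therefore says little about which cells make them.

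Most Paneth cells were deep in UMIs and narrow in genes. Median UMIs per Paneth cell were 16204, 10095 and 8596 for sham 1, 2 and 3, then 19099 and 6198 for resection 1 and 2, against 4462 to 6193 in the remaining cells. Paneth cells had 828 to 1439 detected genes at the median against 1489 to 1882, although they held more UMIs. Their median mitochondrial share was 1.82%, 2.06%, 2.49%, 1.48% and 4.32% in the same order, below the 7.34% to 14.1% of the remaining cells in every library. Outside the 19 genes the median Paneth cell held 2475 to 5527 UMIs.

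Within the Paneth cells, those with a lower antimicrobial share carried more enterocyte transcripts, but fewer goblet transcripts. In cells between 10% and 40% the 15 enterocyte markers summed to 43600, 43919 and 28600 UMIs per 1000000 UMIs outside the 19 genes in the sham libraries and to 35988 and 66669 in the resection libraries. In cells of at least 60% they summed to 9357, 21782 and 11930 across the sham libraries, with 16133 and 36198 in the resection pair, lower in all 5 libraries. On the same scale the goblet markers at 10% to 40% summed to 13173, 23455 and 9944 in sham, and to 29478 and 19204 in resection. At 60% or more they summed to 36086, 35258 and 45136 in sham, and to 38946 and 30536 in resection, higher in all 5 libraries. T cell markers differed in direction between libraries. Of the cells between 10% and 40%, the doublet score marked 2 of 4, 18 of 32 and 10 of 12 in sham 1, 2 and 3, and 3 of 4 and 54 of 82 in resection 1 and 2. The mitochondrial share fell with the antimicrobial share across Paneth cells in each library (Spearman rho −0.75 to −0.89 over 134 to 337 cells, with both shares taken from the same total of UMIs). The part of doublets and of free RNA in these values was not tested.

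**Figure D2:**
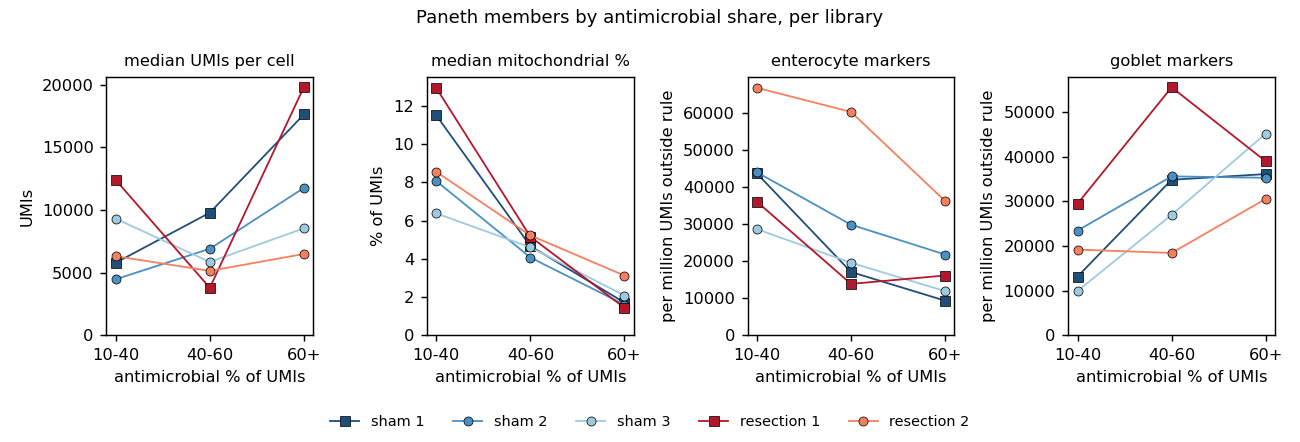
Paneth cells split by antimicrobial share (10% to 40%, 40% to 60%, 60% and above; resection 1 has 1 cell in the middle range), with 1 line per library. From the left, the panels give median UMIs per cell, median mitochondrial percent, and summed enterocyte and goblet marker UMIs per 1000000 UMIs outside the 19 genes; mitochondrial and enterocyte values are lower at 60% and above than at 10% to 40% in all 5 libraries.

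The antimicrobial genes themselves chose the cells, so their levels are a description. Defa24 was the leading gene, at 18.0%, 20.2% and 19.2% of all Paneth UMIs for sham 1, 2 and 3, then 21.1% and 17.1% in resection 1 and 2. Defa20 followed at 14.3%, 11.3% and 13.1% across the sham libraries, with 14.6% and 9.71% in the resection pair. Defa22, Defa21 and Gm15284 each held between 5.56% and 7.88% in every library. Gm14851, of the cryptdin-related branch of the family, held 1.81% to 2.80%, and AY761184 1.31% to 1.86%. UMIs of this 3′ assay count molecules and were not divided by gene length.

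The products that are not defensins were less abundant. Lyz1 held 2.44%, 2.20% and 2.47% of Paneth UMIs across the sham libraries, with 2.32% and 1.69% in the resection pair, Itln1 held 0.996% to 1.79%, and Ang4 0.35% to 0.526%. In all, the 19 genes took 67.7%, 65.0% and 64.8% of Paneth UMIs across the sham libraries, with 73.3% and 53.7% in the resection pair, so that resection 1 was the highest and resection 2 the lowest of all libraries and the groups overlapped. With the 10 further defensin-region genes described below, the total was 82.4%, 74.6% and 74.1% across the sham libraries, with 84.0% and 60.4% in the resection pair.

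Rare copies differed by library set rather than by surgery. Defa-rs7, whose coding sequence equals that of Defa23, was found in 70.9% of Paneth cells of sham 1 and 64.1% of resection 1, while sham 2 reached 6.97%, sham 3 2.24% and resection 2 2.67%. Its level was 102 and 71.5 UMIs per 1000000 in the former pair and 5.90, 2.30 and 3.64 in the latter libraries, so the lowest value of the first set was 12.1 times the highest of the second. Defa25 behaved alike, at 12.3 and 11.4 against 0.766 to 1.21 UMIs per 1000000, a ratio of 9.36, on 59 and 48 UMIs against 1 to 3. Gm7849 stood at 671 and 476 against 89.8 to 122 UMIs per 1000000, while Gm7861, whose coding sequence is the same, differed less, at 10251 and 9138 against 5173 to 8054. Lyz2, the lysozyme of myeloid cells and a neighbour of Lyz1, also stood higher in the first set, at 102 and 66.5 against 9.71 to 26.1 UMIs per 1000000. Of the 26 genes of the defensin region, 20 were higher in both libraries of the first set than in all 3 others. For 6 this was by at least 2-fold, among them Defa2 on 6 and 5 UMIs against 0 or 1. The same counts were not made over all genes, so it cannot be said whether this is particular to the region. Together the 26 genes held 77.7% and 79.5% of Paneth UMIs in the first set, against 57.3% to 70.5% in the second. Median UMIs per Paneth cell divided the libraries the same way, as did the mitochondrial share that defines the sets, and their part was not tested.

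**Figure D3:**
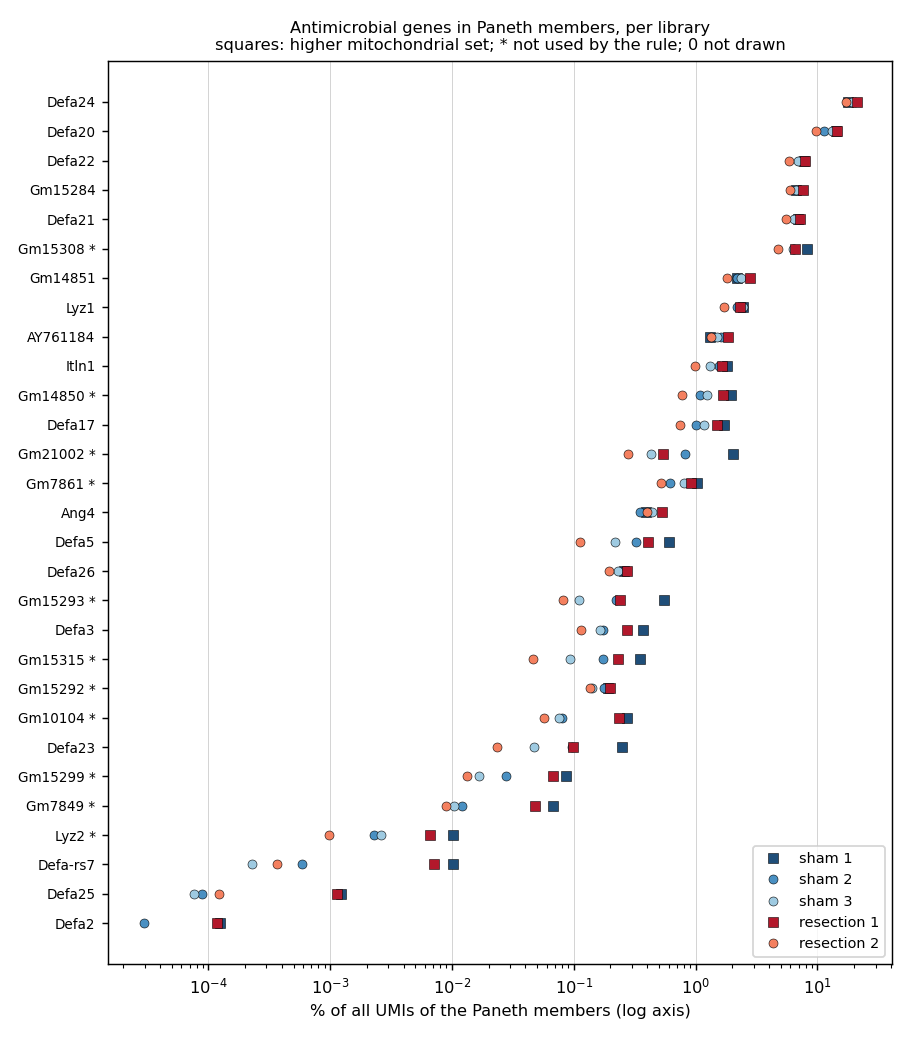
Level of antimicrobial genes in Paneth cells as a percent of all their UMIs (log axis), 1 point per library, with squares for sham 1 and resection 1, and an asterisk on genes the rule did not use. The abundant genes at the top differ little between libraries, while the rare copies near the bottom (Defa-rs7, Defa25, Gm7849) and Lyz2 lie far to the right in both squares.

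Outside the 19 genes, the genes with the largest ratio to the remaining cells were further defensins and a small set of other genes. The Paneth cells were chosen by their transcripts, so the contrast with the remaining cells carries no test. The remaining cells were pooled, with enterocyte markers at 21726 to 68484 and goblet markers at 3855 to 7780 per 1000000 UMIs outside the 19 genes. Goblet and stem cells were not compared on their own, so these ratios do not show what is particular to Paneth cells. Of 5537 genes compared, 69 (1.25%) were higher in Paneth cells in all 5 libraries and 5408 (97.7%) were lower, on a scale where the 19 genes take most of the UMIs. Per 1000000 UMIs outside the 19 genes, a scale added after the data were seen, 405 of 6485 genes (6.25%) were higher in all 5 and 3971 (61.2%) lower. Of the 15 leading genes, 10 lay in the same stretch of chromosome 8 (Gm15315, Gm15293, Gm21002, Gm7861, Gm15308, Gm15292, Gm15299, Gm7849, Gm14850 and Gm10104), led in level by Gm15308 with a mean of 64701 UMIs per 1000000. The other 5 were Mptx2, Mmp7, Clps, Nupr1 and Pnliprp2.

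Mmp7, the protease that activates defensins and a defining Paneth marker not used by the rule, was present at 1497, 1382 and 1170 UMIs per 1000000 for sham 1, 2 and 3, then at 1529 and 1081 in resection 1 and 2. Its mean in the remaining cells was 14.1, a median ratio of 102-fold, so the label holds on this marker. Mptx2, a pentraxin-family protein, had a median ratio of 132-fold. Clps and Pnliprp2, a cofactor and a lipase of the pancreatic type, had median ratios of 93.8 and 71.1, and Nupr1, a stress-induced nuclear protein, 80.9. Below the leading 15, Reg4 stood 59.4-fold, Spink4 19.8-fold, the chemokine Ccl6 19.8-fold and the surface protein Cd24a 15.2-fold above the remaining cells.

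The following levels are per 1000000 UMIs outside the 19 genes. Several secretory transcription factors were higher in Paneth cells in all 5 libraries, at low levels. Atoh1, which sets the secretory fate, stood at 26.5, 19.4 and 26.2 across the sham libraries, with 42.5 and 15.7 in the resection pair, against 1.05 to 1.76 in remaining cells. Spdef, which acts in goblet and Paneth maturation, stood at 45.2, 21.9 and 32.7 across the sham libraries, with 38.1 and 20.99 in the resection pair, against 1.10 to 2.34. Sox9, a factor of crypt base cells, had a median ratio of 3.23, Foxa3 of 15.4 and Bhlha15, a factor of secretory cells also known as Mist1, of 35.2. Of 20 genes on the list of secretory lineage factors at a mean level of at least 10, 8 were higher in all 5 libraries and 9 lower, against the 6.25% and 61.2% of all genes, and Xbp1, a factor of the unfolded protein response, was higher in 1 of 5.

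Of 7 niche ligands and related genes at a mean level of at least 10, 1 was higher in all 5 libraries and 5 were lower. Over all genes 6.25% were higher and 61.2% lower, and the median log2 ratio of the 7 was −1.15. Wnt3, the Wnt ligand that Paneth cells give to stem cells, stood at 49.7, 32.0 and 24.0 across the sham libraries, with 58.5 and 28.9 in the resection pair, against 0.09 to 0.26 in remaining cells, on 225 Paneth UMIs. Dll4, a Notch ligand below that level, stood at 4.37 to 11.6, a median ratio of 2.35 on 46 UMIs, while the Notch ligands Dll1 and Jag1 were lower in all 5 libraries (median ratios 0.71 and 0.53, on 35 and 12 UMIs). Of the growth factors, Areg stood at 76.2 to 323 in Paneth cells and 245 to 567 in remaining cells, lower in all 5 libraries, while Egf was seen on 14 UMIs in all and Tgfa on 48. Among receptors, Ephb3, which positions Paneth cells at the crypt base, was 25.5-fold and Kit 11.7-fold higher at the median. Of 7 stem cell markers at a mean level of at least 10, 3 were higher in all 5 libraries and 1 lower. That stands beside 6.25% and 61.2% of all genes, and the median log2 ratio of the 7 was 0.58. The stem cell receptor Lgr5 was 4.19-fold higher on 70 UMIs. Olfm4, a further stem cell marker, had 7 UMIs in Paneth cells and 0 to 106 per library in the remaining cells.

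Of 11 genes of granule release and ion transport at a mean level of at least 10, 3 were higher in all 5 libraries and 7 lower, against 6.25% and 61.2% of all genes, with a median log2 ratio of −0.44. Rab3d, Sytl2 and Rab27a, which act in granule docking and release, had median ratios of 11.5, 17.6 and 5.26, with Rab27a below that level and so outside the count, and Copz2, a coat subunit of Golgi transport, 44.9. Cftr, the chloride channel, Kcnn4, a potassium channel, and Stx3, a fusion protein of the apical membrane, were lower in all 5 libraries (median ratios 0.39, 0.47 and 0.56). Of 38 genes for protein folding and the unfolded protein response, 15 were higher in all 5 libraries and 11 lower, against 6.25% and 61.2% of all genes. Ern2, a stress sensor of mucus-secreting epithelium, stood at 23.3, 13.5 and 13.1 across the sham libraries, with 34.6 and 19.2 in the resection pair against 0.85 to 2.88, and Herpud1, of the degradation branch, was 2.03-fold higher. The chaperone Hspa5 was 0.89 of the remaining cells at the median and higher in 1 of 5 libraries. Nod2, Lrrk2, Tlr4 and Tlr9, bacterial sensors or genes tied to Paneth defects, had no UMI in Paneth cells, where 3 UMIs per library would be the counting limit. Of 13 genes of autophagy and bacterial sensing, 4 were higher in all 5 libraries and 5 lower, against 6.25% and 61.2% of all genes. Atg7 had a median ratio of 4.20, and Atg5 and Atg4b, of the same conjugation machinery, 0.53 and 0.70.

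Markers of other cell types were present too. Of 13 goblet markers, 10 were higher in Paneth cells in all 5 libraries, beside 6.25% of all genes. Muc2, the gel-forming mucin, stood at 1510, 928 and 1434 across the sham libraries, with 1605 and 873 in the resection pair against 55.8 to 147. Agr2, a mucin-folding enzyme, had a median ratio of 8.60. Zg16, Clca1 and Fcgbp, also goblet products, had median ratios of 1.26, 1.25 and 1.15 and were higher in 3 or 4 of 5 libraries. All 15 enterocyte markers were lower in all 5 libraries, beside 61.2% of all genes. None of the 15 was at 0: their median level was 38.4%, 60.1% and 62.7% of that in the remaining cells across the sham libraries, with 32.6% and 74.0% in the resection pair. Of 13 cycling markers, 11 were lower in all 5 libraries, where 61.2% of all genes were. T cell markers summed to 135 to 1260 in Paneth cells and 144 to 592 in remaining cells. Of the markers of stroma, myeloid cells and vessels, Lyz2 had 906 UMIs in Paneth cells, and the others had between 0 and 6, with Adgre1 and Cdh5 at 0 in the remaining cells as well. Of the metal-handling genes, 12 of 15 were lower, among them Mt1, again beside 61.2% of all genes, while the zinc transporter Slc30a2, which loads Paneth granules, was 1.61-fold higher.

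**Figure D4:**
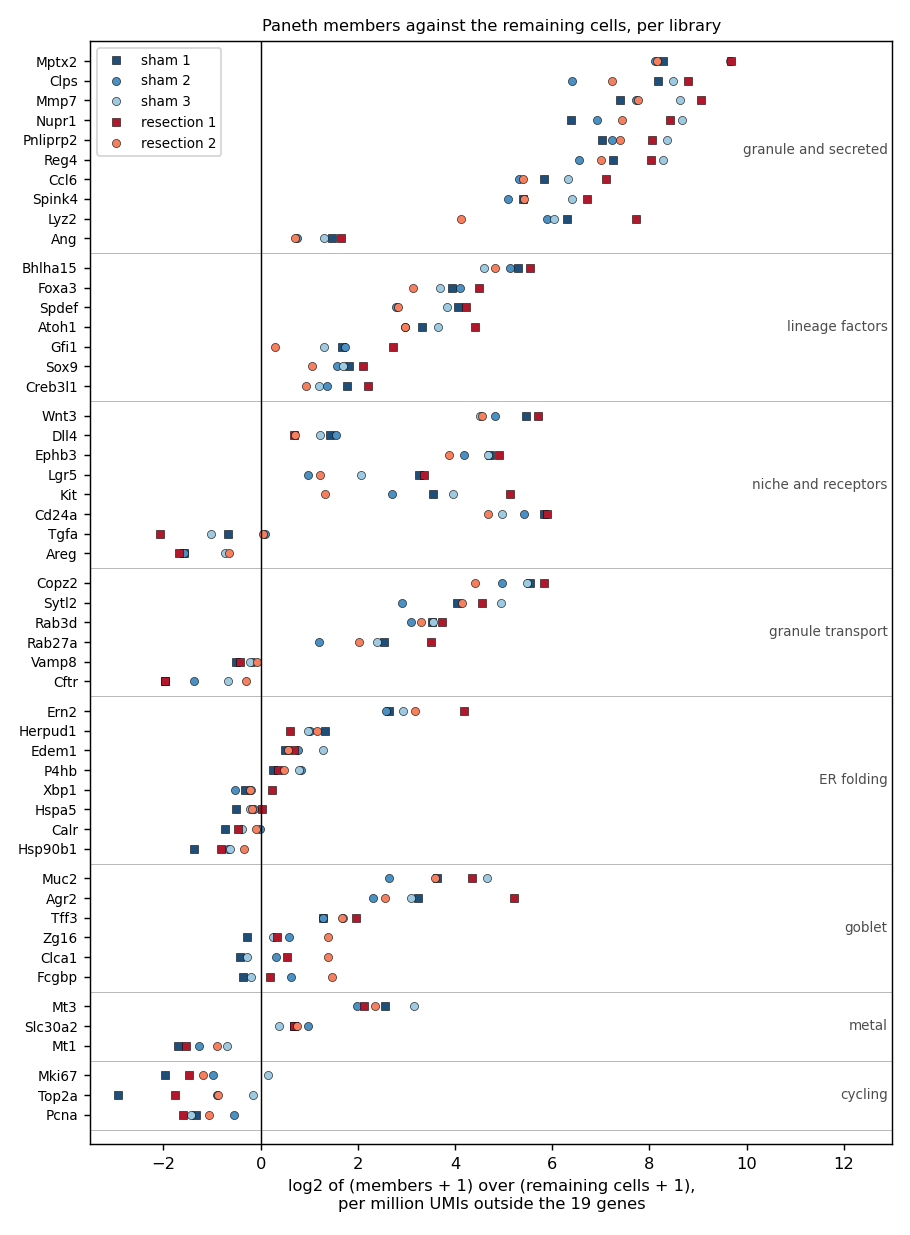
Log2 ratio of Paneth cells to remaining cells for genes grouped by role, per 1000000 UMIs outside the 19 genes with 1 added to both, 1 point per library, squares for sham 1 and resection 1. Granule products, Wnt3, Ephb3 and the lineage factors lie right of 0 in all 5 libraries, the folding genes other than Ern2 lie near 0, and Areg, Mt1 and Pcna lie left.

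The share of Paneth cells did not separate the surgical groups. Among kept cells, sham 1 had 17.7% (exact 95% interval 15.7 to 19.9), sham 2 had 7.33% (6.54 to 8.19) and sham 3 had 4.71% (3.96 to 5.55). Resection 1 had 4.85% (4.19 to 5.59) and resection 2 had 4.74% (4.26 to 5.26); these are intervals that cover counting error only. Sham 1 was high, sham 3 lay just below both resection libraries, and the groups overlapped. Sham libraries averaged 9.93% ± 6.90 (SD, n = 3), and the resection pair averaged 4.80% ± 0.0772 (SD, n = 2), which is −5.13 points relative to sham (two-sided exact permutation test, 10 arrangements of the labels, p = 0.7, smallest possible 0.1). The difference was −1.22 points without sham 1. It was −12.9 points between the libraries of higher mitochondrial share and −1.28 points among those of lower share. With at most 10% mitochondrial UMIs it was −20.4 points, since that filter removed most remaining cells of sham 1 and left Paneth cells as 83.1% of it. Shares in dissociated tissue follow which cells were recovered and which barcodes were kept, so fewer Paneth cells and fewer recovered ones cannot be told apart.

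Within Paneth cells, the surgery comparison was fitted on UMIs summed per library. In the tests from here on levels are counts per 1000000 (CPM) of a library's summed Paneth UMIs after TMM scaling, which moves library totals by factors of 0.737 to 1.53. Of 7140 genes tested with edgeR's quasi-likelihood test and Benjamini-Hochberg adjustment, 2 were higher after resection (0.028%) and 0 lower (0.0%). At an unadjusted p below 0.05 there were 121 genes, and DESeq2 called 6 higher and 0 lower.

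Both called genes were on the list of genes typical of the upper small intestine. Slc2a2, the basolateral glucose transporter GLUT2, stood at 0.997, 0.296 and 0 CPM in sham 1, 2 and 3 (4, 1 and 0 UMIs) and at 11.3 and 14.3 CPM in resection 1 and 2 (35 and 54 UMIs). The groups did not overlap, and the log2 fold change was 4.43 ± 0.56 (SE; edgeR adjusted p = 0.0171). From the summed UMIs the ratio was 22.7, with an exact counting interval of 9.37 to 71.6. Cyp2b10, a drug-metabolising cytochrome P450, stood at 0.249, 0.296 and 0 CPM in sham (1, 1 and 0 UMIs) and 9.36 and 6.64 CPM after resection (29 and 25 UMIs). Here too every resection value exceeded every sham value, with a log2 fold change of 4.90 ± 0.67 (edgeR adjusted p = 0.0198). Its ratio of summed UMIs was 34.4, with a counting interval of 9.08 to 292.

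These calls rested on few UMIs and depended on which libraries entered. Both genes were called without sham 1 (edgeR adjusted p = 0.000418 for Slc2a2 and 0.0131 for Cyp2b10) and without resection 2 (0.0067 for each). Without sham 2 and without sham 3 no gene was called, while the log2 fold changes stayed near those with all libraries, at 4.096 and 4.195 for Slc2a2 and 5.16 and 4.71 for Cyp2b10. No gene was called either when only the 863 cells of at least 60% antimicrobial share were used. In that fit Slc2a2 had a log2 fold change of 3.61 (edgeR adjusted p = 0.0767) and Cyp2b10 5.47 (edgeR adjusted p = 0.0652). Without resection 1 the genes called were Slc2a2 and Cyp3a11, and Cyp2b10 had an edgeR adjusted p of 0.102. A fit with 1 resection library takes it to vary as the sham libraries do. Slc2a2 and Cyp2b10 also stood higher in the remaining cells after resection, by 4.05 and 3.88 on the log2 scale, where 0 of 11930 genes passed the adjusted threshold in edgeR and 358 had an unadjusted p below 0.05.

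Further genes of the proximal program leaned the same way without passing. The list of genes typical of the upper small intestine, whose members had been seen to move in these data, had 32 members tested, of which 16 had both resection libraries above the sham range and 0 below, where 7.02% and 5.73% of all genes tested did. Its median log2 fold change was 0.77, beside −0.00 over all genes tested, and it was 0.72 in the remaining cells. Fabp1, which carries fatty acids in the upper intestine, stood at 26.2, 80.2 and 106 CPM in the sham libraries, against 446 and 481 CPM in resection 1 and 2, with a log2 fold change of 2.72 ± 0.54 (edgeR adjusted p = 0.437). Lct, the brush border lactase, stood at 15.2, 10.1 and 3.67 CPM in the sham libraries, against 66.1 and 47.8 CPM in resection 1 and 2 (2.46 ± 0.45, adjusted p = 0.243). The groups did not overlap for either gene. Apoa4, Apoc3 and Rbp2, of lipid and retinoid transport, had log2 fold changes of 2.73, 2.22 and 1.74 and likewise no overlap, and with the library set as a term all 5 of these passed with Slc2a2 and Cyp2b10, 7 genes in all (0.098%).

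Fabp6, the ileal bile acid carrier and the most abundant gene of the distal list, stood at 2516, 4723 and 6658 CPM in the sham libraries, against 408 and 3603 CPM in resection 1 and 2. Resection 1 lay far below all others, resection 2 lay within the sham range, and the log2 fold change was −1.21 ± 0.82 (edgeR adjusted p = 0.9998). In the remaining cells Fabp6 held 2.51%, 2.10% and 2.91% of all UMIs in sham 1, 2 and 3. It held 0.529% and 1.65% there in resection 1 and 2, both below the sham range. Of the 22 distal genes tested, 6 lay above and 1 below the sham range in both resection libraries, beside 7.02% and 5.73% of all genes tested, with a median log2 fold change of 0.05. Without resection 2, Fabp6 was called lower, at a log2 fold change of −3.54 (edgeR adjusted p = 0.0377); that fit sets resection 1 alone against the sham libraries, whose spread is the only one it has, and without resection 1 its log2 fold change was −0.37.

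Most of the surgery and absorption genes examined stood below the remaining cells in every library. Per UMI outside the 19 genes, Fabp1 reached 32.2% to 79.4% of its level in the remaining cells of the same library, Lct 36.1% to 84.4% and Apoc3 49.9% to 96.2%. Slc2a2 reached 38.5%, 14.8% and 0% across the sham libraries, with 25.6% and 87.8% in the resection pair. Cyp2b10 reached 31.1%, 46.5% and 0% in sham 1, 2 and 3, but 64.4% in resection 1 and 189% in resection 2, and Apoa4 reached 113% in sham 1. The enterocyte list summed to 10337 to 25831 per 1000000 UMIs outside the 19 genes in sham Paneth cells and to 16810 and 54579 in those of resection 1 and 2, and resection 2 also held the most cells of low antimicrobial share. The part of free RNA, doublets and the libraries' enterocyte content in these values was not tested.

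**Figure D5:**
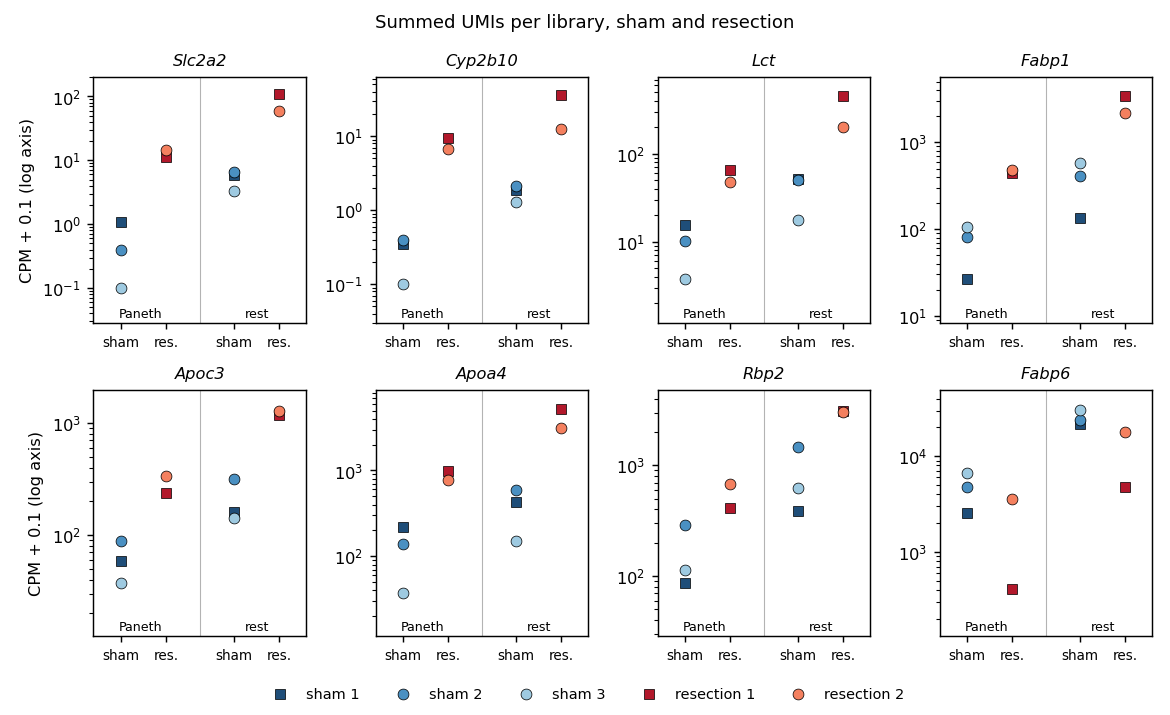
CPM (log axis, with a small constant added so that 0 can be drawn) of 8 genes in the summed Paneth cells and in the summed remaining cells, by surgery, 1 point per library, squares for sham 1 and resection 1. For the first 7 genes both resection points lie above all 3 sham points in both cell classes; for Fabp6 resection 2 lies within the sham range in Paneth cells.

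No antimicrobial gene passed the test by surgery. Of the 18 tested, 0 were called by edgeR (0.028% of all genes higher, 0.0% lower), 7 had a positive and 11 a negative log2 fold change, between −0.97 (Defa23) and 0.32 (Defa25), and none lay outside the sham range in both resection libraries. Defa24 stood at a log2 fold change of −0.01 ± 0.84, Lyz1 at −0.23 ± 0.71 and Ang4 at 0.24 ± 0.61 (all edgeR adjusted p = 0.9998). Errors of this size mean that a 2-fold change was not detectable for these genes. Their sum is also bounded from below by the rule. With a replicate block, which pairs libraries by the number in their titles, Defa23 was called lower (edgeR adjusted p = 0.0445).

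The 3 further gene lists that follow held no called gene. Their counts stand beside 7.02% above and 5.73% below the sham range over all genes tested. Of 40 folding and unfolded protein response genes tested, 0 lay above and 4 below the sham range in both resection libraries, with a median log2 fold change of −0.20. Creld2, a folding-related protein, stood at 16.7, 13.6 and 19.8 CPM in the sham libraries, against 11.3 and 6.91 CPM in resection 1 and 2. Of 19 genes of the dissociation response, 0 lay above and 3 below, with a median of −0.44. Of 23 secretory lineage factors tested, 2 lay on each side, with a median of −0.17. Wnt3 stood at 19.2, 11.3 and 8.07 CPM in the sham libraries, against 21.3 and 8.77 CPM in resection 1 and 2, and the groups overlapped.

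Among the genes lower after resection by the lowest p, none passed. Saa1, an acute phase protein, stood at 55.3, 133 and 94.6 CPM in the sham libraries, against 47.7 and 42.8 CPM in resection 1 and 2, and Trib1, a pseudokinase, at 143, 94.2 and 116 CPM against 75.2 and 48.3 CPM. Their log2 fold changes were −1.06 ± 0.45 and −0.93 ± 0.42 (edgeR adjusted p = 0.9998 for both), with all sham values above all resection values. Car4, Ifrd1, Pmp22, Eif4ebp1 and Pfn1 showed the same order of libraries, with log2 fold changes from −0.82 to −1.19.

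Whether surgery acted differently in Paneth cells than in the remaining cells was tested as an interaction, with each library as its own block. Of 10409 genes, 0 were called by edgeR (0.0%), with 214 at an unadjusted p below 0.05, and 0 by DESeq2, with 82. The interaction was 0.75 for Slc2a2 and 1.53 for Cyp2b10 on the log2 scale, with unadjusted p of 0.300 and 0.125. The genes with the lowest p were Clca1, Hepacam2 and Rpl23a-ps3, whose effect was higher in Paneth cells by 1.03, 1.12 and 0.86, and the immediate-early genes Dusp1, Egr1 and Fosb, lower by 1.05, 0.97 and 0.83 (no adjusted p below the threshold in edgeR). With the library set entered for each class, 5 genes were called higher and 17 lower, among them these 6. Without resection 2 the counts were 26 and 3, and without resection 1 they were 0 and 3.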

How the data were processed

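Epithelial cells were profiled with 10x Chromium 3′ v2 chemistry, per the labels' protocols, and processed with Cell Ranger, for which the labels give a version followed by a question mark. The submitters' processing notes name the builds mm10 and GRCm38. The authors deposited UMI counts that were not normalized, as 1 matrix of cells by 27998 gene rows for each library. Cells with at least 500 genes and at most 20% mitochondrial UMIs were kept. Paneth cells were chosen by their own counts, so the contrast with the remaining cells is given without a test, as log2 ratios of CPM + 1 per library. Members and gene lists were chosen with earlier results of these data known.

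Counts were summed per library and class, and tested with edgeR 4.0.16 in R 4.3.3 (quasi-likelihood F-test, TMM scaling, filterByExpr, Benjamini-Hochberg adjustment over all genes tested, threshold 0.05, two-sided), with DESeq2 1.42.0 as an alternative. Standard errors were obtained as the absolute log2 fold change over the square root of F. The scripts were tested on simulated data with known fold changes. The library is the replicate; the share of Paneth cells was compared by an exact permutation test over libraries. Libraries were split into sets at the largest gap in median mitochondrial share, and results are also given with or within these sets. Doublets were scored from simulated doublets (scikit-learn 1.9.0), marking 0.8% of a library's cells per 1000 cells, and were removed only as an alternative. Intervals on shares are exact 95% (Clopper-Pearson).

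Named genes follow a rule: the antimicrobial genes tested; the 15 genes with the largest median ratio to the remaining cells at a mean of at least 100 CPM; by surgery, the 8 genes of each direction with the lowest p, a mean of 20 CPM or more and no overlap of the groups; per gene list, the 2 members of lowest p; the 3 genes of each direction with the lowest p in the interaction; and 22 genes listed by symbol, among them Mmp7, Wnt3, Atoh1, Muc2, Lgr5 and Fabp6. Some genes that this rule names are not reported here. Other genes named were picked after their values were seen, as examples of their group. Gene positions and coding sequences come from GENCODE M21 (GRCm38), and promoters from RefSeq (GRCm38.p6). Alternatives tried are given in the closing section.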

Additional observations from a re-analysis of the deposited data

How the results depend on the processing

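The lower share of Paneth cells in resection kept its direction in every alternative run; with 5 libraries the smallest possible p is 0.1, so no setting could pass, and the comparisons within a set have no test: −4.69 to −5.45 points with members at 5%, 20% or 60% of UMIs, doublets removed or no filter on cells, −20.4 with at most 10% mitochondrial UMIs, −12.9 and −1.28 within the sets of higher and lower mitochondrial share, and −1.22 to −7.74 when each library was left out in turn. The count of genes higher after resection in Paneth cells was 2 with members at 5% or 20%, doublets removed, at most 10% mitochondrial UMIs, or the antimicrobial genes left out. With 50 cells per library it was 4 (Apoa4, Apoc3, Fabp1 and Lct), and neither Slc2a2 nor Cyp2b10 was among them. It was 0 with members at 60% (chosen after seeing the data), 6 with DESeq2 and 10 without the filter on low counts. With the library set as a term it was 7, and leaving out each sham library gave 0 to 4. The count lower was 3 without the filter on low counts and 0 to 2 leaving out each library, and 0 in the other alternatives except the block. With the replicate block, in which equal numbers in the titles form a pair, 10 genes were higher and 7 lower, the antimicrobial gene Defa23 among the latter. The labels do not say that numbers pair the libraries. Deviations of equal-numbered libraries from their group means correlated at 0.65 and 0.49 over 4176 genes, and only 2 such pairs exist. The deviations of the 2 resection libraries mirror each other, so any sham library correlates positively with 1 of them and negatively with the other. Sham 3, which has no partner by number, correlated at 0.355 with resection 2. These values therefore cannot show whether the numbers mark pairs. For the interaction, the library set by class gave 5 genes higher and 17 lower, leaving out each library gave 0 to 26 and 0 to 3, and the other alternatives gave 0. Genes at least 2-fold above the remaining cells in all 5 libraries numbered 23, and 47 per 1000000 UMIs outside the antimicrobial genes (chosen after seeing the data). For single genes by surgery, the log2 fold change of Defa24 turned positive with members at 5% (0.062), at 60% (0.029) or at most 10% mitochondrial UMIs (0.029), and ranged from −0.85 to 0.48 leaving out each library. That of Mmp7 turned positive with members at 5% (0.029) or 60% (0.0038) and ranged from −1.02 to 0.51, and that of Lyz1 ranged from −1.17 to 0.30, none past the threshold. With few UMIs outside the antimicrobial genes per cell, genes of a few UMIs per library set the limit of what could be tested.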

Other observations

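Of the cells removed by the filters, 44 also had an antimicrobial share of at least 10%, and 42 of them were removed for having fewer than 500 genes. Paneth cells held 43.2% of all kept UMIs in sham 1, 15.1% in sham 2, 5.78% in sham 3, 15.6% in resection 1 and 6.05% in resection 2. Of the genes of the antimicrobial response made by many epithelial cells, Reg3b stood at 7764 to 26960 per 1000000 UMIs outside the antimicrobial genes in Paneth cells and 32395 to 65401 in remaining cells, and Reg3g at 10064 to 16875 and 13008 to 26984, both lower in Paneth cells in all 5 libraries.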
